A study of Mus musculus with 20 samples.

Results

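The 10 genes described here encode the 5 subunits of the transcription factor NF-kB (Nfkb1, Nfkb2, Rel, Rela and Relb) and 5 regulators that act on it, mostly as inhibitors (Nfkbia, Nfkbie, Nfkbiz, Bcl3 and Tnfaip3). They were chosen by gene symbol, and all 10 were listed in both expression tables, among 11668 genes listed in either table and 9608 listed in both. Group 2 innate lymphoid cells (ILC2), tissue lymphocytes that secrete type 2 cytokines, were sorted from thymi of young wild-type male mice and profiled by MARS-seq, which reads the 3' ends of polyadenylated RNA in bulk. All cells were kept in culture with IL-7 for 12 h and, in fresh medium, for another 24 h, and were then treated for 24 h with any cytokine at 10 ng/mL. Cells sorted as IL25R+ received PBS vehicle, recombinant IL-25, recombinant IL-33 or both cytokines (n = 3 libraries each). Cells sorted as ST2+, the receptor chain that binds IL-33, received vehicle or recombinant IL-33 (n = 4 each). All groups were wild type and had the same culture with IL-7 before treatment. The labels do not say that replicates came from separate mice, so p-values measure only the spread between these samples, which may be technical.

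NF-kB dimers of Rel-family subunits are held in the cytoplasm by inhibitor of kappaB (IkB) proteins until the IKK kinases mark those inhibitors for destruction, which frees the dimers to enter the nucleus. Many of the genes that NF-kB then switches on encode its own precursors and inhibitors, so that their transcripts are widely used as a readout of the pathway. IL-33 signals through ST2 and the adaptor MyD88, and IL-25 through the IL-17RB and IL-17RA chains and the adaptor Act1. Both routes lead to TRAF6 and the IKK complex, and in ILC2 they are known to drive type 2 cytokine production.

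The promoter sequences below are shown because binding sites in these genes' own promoters are the textbook basis of that feedback. A search window of 250 bases before to 50 bases after the start site, from RefSeq (GRCm38.p6), was at hand for 7 of the 10 genes, the others being Nfkb1, Relb and Nfkbiz. The kappaB consensus, searched on both strands with overlapping matches kept, occurred in 6 of these 7 genes, in 8 of their 10 windows. Over all promoters, 1480 of 32851 windows (4.51%) and 1388 of 27025 genes (5.14%) held it. Rela had no match in its window. Capitals mark the matches. A match describes these letters and is no evidence of binding in these cells. Nfkb2 and Tnfaip3 had several windows, and the first listed with a match is shown. Windows of Nfkb2 overlap in part, so its match at chr19:46305705-46305714 is held by more than a single window in the count above. The stretches run from 130 bases before the start to the base before it, on the gene's strand, except for Bcl3, whose match lies just after the start.
Nfkb2 (chr19:46304607-46304736, plus strand): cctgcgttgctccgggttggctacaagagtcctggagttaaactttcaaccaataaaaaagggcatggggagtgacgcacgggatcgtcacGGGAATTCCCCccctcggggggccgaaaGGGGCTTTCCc
Rel (chr11:23770970-23771099, minus strand): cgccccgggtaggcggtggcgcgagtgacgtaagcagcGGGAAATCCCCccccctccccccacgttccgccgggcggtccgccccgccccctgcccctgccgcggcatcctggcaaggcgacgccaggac
Nfkbia (chr12:55492648-55492777, minus strand): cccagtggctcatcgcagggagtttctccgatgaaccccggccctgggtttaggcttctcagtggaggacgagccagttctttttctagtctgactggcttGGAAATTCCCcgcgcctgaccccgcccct
Tnfaip3 (chr10:19015411-19015540, minus strand): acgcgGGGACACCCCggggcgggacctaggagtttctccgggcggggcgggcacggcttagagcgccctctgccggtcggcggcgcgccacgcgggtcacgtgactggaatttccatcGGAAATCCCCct
Bcl3 (chr7:19822744-19822773, minus strand): ttcagttcagtcggcggcagGGGAAGTCCC
In Nfkb2 and Rel 2 overlapping matches form the first capital run. The match starting at -39 in Nfkb2 and at -92 in Rel reads on either strand, and its overlapping partner on the opposite strand alone. The later run of Nfkb2 matches on the gene's strand alone. Nfkbie, whose window is not shown, had its match 106 bases before the start. All 10 genes are annotated as protein-coding in GENCODE M21 on mm10, for example Nfkbia at chr12:55489410-55492647 and Nfkb2 at chr19:46304320-46312385.

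Levels are given as CPM, a gene's share of all counts in its library on the usual scale, and they are compared between libraries, never between genes. Library totals ran from 834913 to 1880906 counts in IL25R+ cells and from 537999 to 5453444 in ST2+ cells. Of 18 ILC2 markers, 16 were listed for IL25R+ and 17 for ST2+ cells, including Gata3 and Il7r, with summed levels of 4068 to 4840 CPM in IL25R+ cells. Most of that sum came from Thy1 and Ptprc, which averaged 3200 and 769 CPM in IL25R+ vehicle cells, so it says little of the other markers. Gata3 averaged 119 CPM there, Id2 58.9 CPM, and Klrg1, Il5 and Arg1 0.633, 0.327 and 0.655 CPM. In ST2+ cells the sum was 4058 to 5297 CPM with vehicle and 4423 to 19304 CPM with IL-33. Without the secreted products Il13, Il5 and Areg it was 3887 to 4925 CPM with vehicle and 1819 to 3889 CPM with IL-33, so the remaining markers were lower or at the lower edge with IL-33. T cell markers, 11 of 14 listed for IL25R+ and 9 of 14 for ST2+ cells, summed to 940 to 1599 CPM and to 49.2 to 217 CPM. Glycam1, a mucin-like gene, parted the IL25R+ libraries, standing at 125 to 455 CPM in 7 libraries (all 3 with vehicle, all 3 with both cytokines and IL-33 library 3) and at 0 to 0.731 CPM in the other 5 (all 3 with IL-25 and IL-33 libraries 1 and 2). Glycam1 was not alone in this. Aire, a marker of thymic epithelium, averaged 27.8 CPM with IL-25, 0.655 CPM with vehicle and 0.403 CPM with both cytokines. Within the IL-33 group of IL25R+ cells Aire ran from 0 to 10823 CPM. Every IL-33 result in IL25R+ cells uses that group, and the cause of this spread was not tested. Il1rl1, which encodes ST2, averaged 9.63 ± 2.40 CPM (SD, n = 3) in IL25R+ and 339 ± 139 CPM (SD, n = 4) in ST2+ vehicle cells. Il17rb, which encodes the receptor chain that binds IL-25, was not higher in cells sorted as IL25R+. It averaged 23.8 ± 9.69 CPM (SD, n = 3) in IL25R+ and 85.6 ± 27.9 CPM (SD, n = 4) in ST2+ vehicle cells. IL-33 library 2 of ST2+ cells stood apart, with 2520 CPM of Il13 against 8757 to 13881 CPM in the other 3 libraries of its group and a TMM scaling factor of 0.761 against 0.968 to 1.10 in the other 7.

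IL-25 raised the transcripts of 5 of the 10 genes in IL25R+ cells and lowered none. The inhibitors Nfkbiz, Bcl3 and Nfkbia and the subunits Relb and Nfkb1 were higher, and the changes of Nfkbiz, Bcl3 and Relb were the larger ones. Over all 8850 genes tested, 9.07% were called higher and 5.9% lower. A call means an adjusted p below 0.05 in edgeR's quasi-likelihood test with Benjamini-Hochberg adjustment over all genes tested, and the same test gave every adjusted p below. The median change of the 10 genes was 0.41 on the log2 scale, beside -0.03 over all genes tested. In bulk samples such as these, fewer cells of a type and less RNA per cell cannot be told apart.

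**Figure D1:**
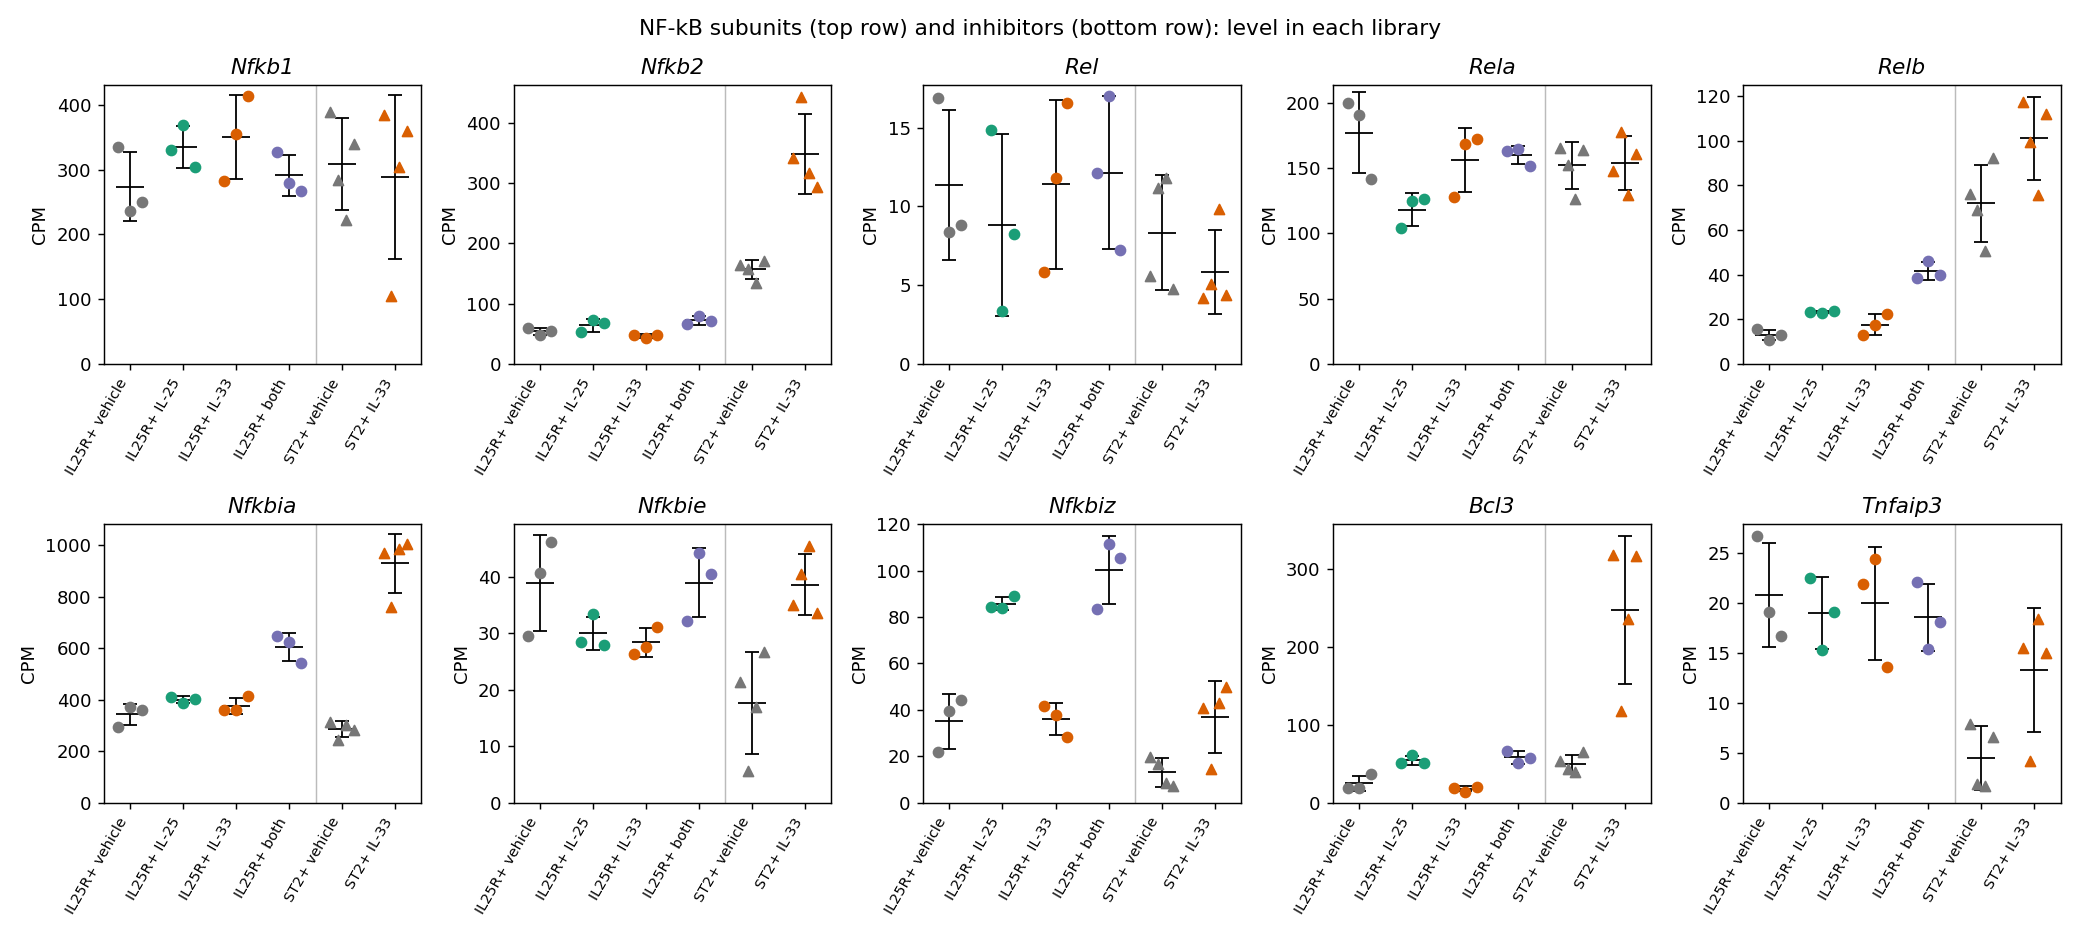
Level of each gene (vertical axis, CPM, starting at 0 with its own scale in each panel) in every library, with circles for IL25R+ and triangles for ST2+ cells and black bars for the group mean ± SD (n = 3 or 4). Nfkbiz and Bcl3 stood higher in the IL-25 and both-cytokine libraries than in the vehicle and IL-33 libraries of IL25R+ cells, and Nfkb2, Nfkbia and Bcl3 stood higher in every IL-33 library than in every vehicle library of ST2+ cells.

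Among the subunits, Relb encodes the transactivating partner of the alternative pathway. Its level was 15.5, 10.8 and 12.8 CPM with vehicle and 23.1, 22.7 and 23.5 CPM with IL-25. Every IL-25 library lay above every vehicle library, a rise of 0.97 ± 0.25 on the log2 scale (SE, adjusted p = 0.0112). Nfkb1 encodes the precursor of the small subunit that pairs with RelA. It stood at 335, 236 and 250.4 CPM with vehicle and at 330, 370 and 305 CPM with IL-25. Those ranges overlapped, because vehicle library 1 was as high as the IL-25 libraries, and the change was 0.46 ± 0.14 (SE, adjusted p = 0.0296). Without either of the other vehicle libraries, or without IL-25 library 1 or 2, this call was lost, with adjusted p-values up to 0.119.

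Nfkb2, the precursor that is cleaved in the alternative pathway, measured 59.0, 47.9 and 55.0 CPM with vehicle and 52.2, 72.7 and 68.1 CPM with IL-25, a difference of 0.41 ± 0.16 that did not pass (adjusted p = 0.0865). Rela, the main transactivating subunit, went the other way in level. It stood at 200, 190 and 141 CPM with vehicle and at 104, 125 and 126 CPM with IL-25. The ranges did not overlap, but the difference of -0.41 ± 0.14 did not pass (adjusted p = 0.0514). It did pass when only the groups compared set the spread, with an adjusted p of 0.0274. Rel, the subunit best known from lymphocyte activation, rested on 5 to 32 counts a library in IL25R+ cells, and its difference of -0.23 had a 95% interval from -1.19 to 0.74.

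Among the inhibitors, Nfkbiz encodes a nuclear IkB protein that steers NF-kB towards secondary response genes. It stood at 21.8, 39.5 and 44.2 CPM with vehicle and at 84.3, 84.1 and 89.0 CPM with IL-25. No library of one group reached the other, and the rise was 1.51 ± 0.21 (SE, adjusted p = 3.44e-05), or 2.86-fold. Bcl3 encodes another nuclear IkB protein, which binds the small subunits and can activate transcription. It was at 19.0, 19.2 and 36.3 CPM with vehicle and at 51.0, 61.4 and 50.9 CPM with IL-25, again without overlap and with a rise of 1.32 ± 0.23 (SE, adjusted p = 0.000371). Nfkbia encodes IkB-alpha, the inhibitor that is degraded and made anew in the classical pathway. Its levels were 294, 372 and 361 CPM with vehicle and 411, 386 and 404 CPM with IL-25. The groups did not overlap, yet the change was small, 0.40 ± 0.13 (SE, adjusted p = 0.0336), and leaving out any of 5 single libraries ended the call.

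Nfkbie, which encodes IkB-epsilon, and Tnfaip3, which encodes the deubiquitinating enzyme A20, showed no call. Their differences with IL-25 were -0.17 (95% interval -0.62 to 0.27) and 0.02 (-0.54 to 0.58). All vehicle libraries had Glycam1 above 10 CPM and all IL-25 libraries did not, so between these groups IL-25 and the split cannot be told apart. With that split as a term in the fit, estimated from the IL-33 group alone, whose library 3 differs from the other pair, 3 of the genes were called (Nfkb1, Relb and Bcl3). Nfkbiz then changed by 1.01 (adjusted p = 0.157) and Nfkbia by 0.59 (adjusted p = 0.0820). The IL-33 group that set this term was also the group with the wide range of Aire. Myeloid and dendritic cell markers, 9 of 14 listed, summed to 460 to 647 CPM with vehicle and 366 to 399.6 CPM with IL-25. Most of that sum came from Cst3, which averaged 390 CPM with vehicle and 363 CPM with IL-25, so it says little of the others. T cell markers summed to 1301 to 1458 CPM with vehicle and 1085 to 1277 CPM with IL-25, without overlap. The part of either marker list in these changes was not tested.

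IL-33 alone changed none of the 10 genes in IL25R+ cells by the edgeR test. The background was also low, with 0.181% of genes called higher and 0.0565% lower. DESeq2 and limma-voom also called 0 of the 10. At an unadjusted p below 0.05 there was 1 of the 10, Nfkb1, beside 12.1% of all genes tested. Nfkb1 stood at 283, 355 and 413 CPM with IL-33, overlapping its vehicle range, for a difference of 0.34 (95% interval 0.05 to 0.63, adjusted p = 0.340). Its high library was IL-33 library 3, the one with Glycam1 in the vehicle libraries' range, and with libraries 1 and 2 left out it was called, at 0.59 (adjusted p = 0.0392) with library 3 as the sole IL-33 library and its spread taken from the other groups. Bcl3 was at 18.3, 14.2 and 20.4 CPM, a difference of -0.49 with a 95% interval from -1.06 to 0.09. Nfkbiz was at 41.7, 37.8 and 28.2 CPM, within its vehicle range, and Nfkbia at 358, 359 and 413 CPM. The interval for Nfkbia ran from -0.13 to 0.40 and that for Nfkbiz from -0.41 to 0.60.

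With both cytokines, 5 genes rose over vehicle in IL25R+ cells and none fell, beside 8.97% of all genes higher and 6.67% lower. They were Relb, Nfkb2, Nfkbia, Nfkbiz and Bcl3. This group shares its vehicle libraries with the IL-25 comparison. Relb reached 38.6, 46.3 and 39.9 CPM, above every other IL25R+ library, a rise of 1.76 ± 0.23 over vehicle (SE, adjusted p = 1.99e-05), or 3.38-fold. Nfkbia reached 647, 624 and 542 CPM, also above every other IL25R+ library, a rise of 0.93 ± 0.13 (SE, adjusted p = 2.35e-05). Both inhibitor and subunit had their highest levels in this population with the cytokines combined.

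Nfkbiz stood at 83.7, 112 and 105 CPM with both cytokines, a rise of 1.68 ± 0.21 (SE, adjusted p = 7.14e-06), and Bcl3 at 66.5, 50.5 and 56.9 CPM, a rise of 1.34 ± 0.23 (SE, adjusted p = 0.000270). Both overlapped their IL-25 libraries. Nfkb2 stood at 65.8, 79.7 and 70.8 CPM, above the vehicle range, with a rise of 0.52 ± 0.16 (SE, adjusted p = 0.0280). That call did not survive the loss of vehicle library 1, 2 or 3, or of library 2 or 3 of the both-cytokine group, with adjusted p-values up to 0.114. In DESeq2 it was not called either (adjusted p = 0.0697). Nfkb1, Rela, Nfkbie, Tnfaip3 and Rel differed from vehicle by 0.19, -0.04, 0.15, -0.10 and 0.15 and were not called. The T cell markers summed to 1301 to 1458 CPM with vehicle and 940 to 965 CPM with both cytokines, without overlap. With IL-25 alone the sum, 1085 to 1277 CPM, also lay below the vehicle range. The part of these markers in the changes with both cytokines was not tested.

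Set directly against IL-25 alone, the combination raised Relb by 0.78 ± 0.20 (SE, adjusted p = 0.0331) and Nfkbia by 0.52 ± 0.12 (SE, adjusted p = 0.0215). These were 2 of the 10 genes, where 1.36% of all genes were higher and 1.79% lower. For both genes the 3 libraries with both cytokines lay above the 3 with IL-25 alone. Leaving out any library of these groups left at most 1 call, and with the Glycam1 split as a term the changes were 0.24 (adjusted p = 0.899) and 0.34 (adjusted p = 0.607). Markers of other cells moved in the same comparison. Of 6 tested myeloid and dendritic cell markers, 4 were higher with both cytokines (H2-Aa, H2-Eb1, Cd74 and H2-Ab1, all of antigen presentation). Of 4 tested fibroblast and endothelial markers, 2 were higher (Dcn and Col1a2). H2-Aa, for example, stood at 1.33 to 1.91 CPM with IL-25 and at 44.2 to 60.6 CPM with both. The myeloid and dendritic list, mostly Cst3, summed to 366 to 399.6 and 462 to 508 CPM. With vehicle H2-Aa stood at 31.6 to 71.7 CPM. The same 4 markers were called lower with IL-25 than with vehicle, and 0 of the 6 were called for both cytokines against vehicle. Dcn and Col1a2 averaged 11.8 and 10.7 CPM with vehicle, 0 CPM with IL-25, and 11.7 and 10.5 CPM with both. Pecam1, of the same list, moved otherwise, averaging 85.8 CPM with vehicle, 146 CPM with IL-25 and 185 CPM with both. It was called higher than vehicle with IL-25 and with both. The part of these markers in the changes of Relb and Nfkbia was not tested. Nfkbiz and Bcl3 differed between these groups by 0.16 (95% interval -0.20 to 0.52) and 0.02 (-0.38 to 0.41). Set against IL-33 alone, Nfkb2, Relb, Nfkbia, Nfkbiz and Bcl3 were higher, where 9.29% of all genes were higher and 7.88% lower. In that comparison Bcl3 was higher by 1.82 (adjusted p = 1.2e-05) and Nfkbiz by 1.58 (adjusted p = 1.04e-05). The Nfkb2 call there, at 0.75, was lost with the Glycam1 split as a term (adjusted p = 0.0779) and without IL-33 libraries 1 and 2 (adjusted p = 0.0693).

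IL-33 and IL-25 also differed when set against each other. Nfkb2, Nfkbiz and Bcl3 were lower with IL-33 than with IL-25, by log2 changes of -0.64, -1.42 and -1.81 (adjusted p = 0.0105, 6.56e-05 and 1.87e-05). In that comparison 5.48% of all genes were higher and 8.34% lower. The Nfkb2 call was lost without IL-25 library 2 or 3 or without IL-33 libraries 1 and 2 together, with adjusted p-values up to 0.111. The interaction asks whether the effect of both cytokines departs from the sum of the separate effects on the log2 scale. No member was called, where 1.04% of all genes had a positive and 1.31% a negative interaction, and DESeq2 and limma-voom also called 0. At an unadjusted p below 0.05 there were 4, beside 17.1% of all genes. Nfkb1 was negative, at -0.61 (95% interval -1.02 to -0.20, adjusted p = 0.106). Rela, Nfkbie and Nfkbia were positive, at 0.56, 0.76 and 0.39 (adjusted p = 0.132, 0.190 and 0.263). Leaving out IL-33 library 3 brought Rela past the threshold (0.63, adjusted p = 0.0427), and leaving out IL-33 libraries 1 and 2 together did so for Nfkb1 (-0.86, adjusted p = 0.0165).

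The authors' deposited table, at an adjusted p below 0.05, holds fewer of these calls. In the authors' deposited table Relb did not pass with IL-25 (adjusted p = 0.0541), nor Nfkb2 with both cytokines (0.111), nor Relb for both cytokines against IL-25 (0.185).

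**Figure D2:**
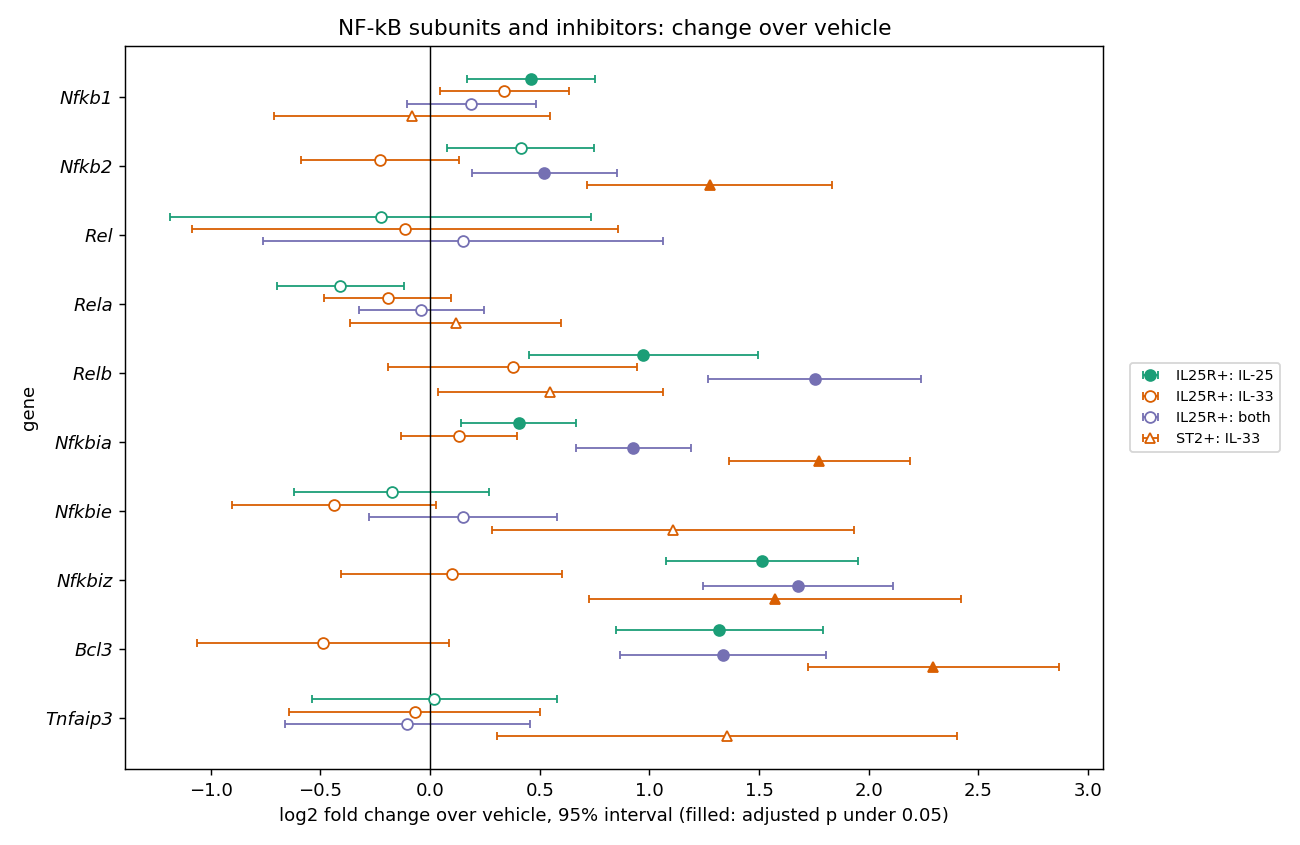
log2 fold change over vehicle (horizontal axis) of each gene (vertical axis) with its 95% interval, for IL-25, IL-33 and both cytokines in IL25R+ cells (circles, n = 3 against 3) and IL-33 in ST2+ cells (triangles, n = 4 against 4); filled symbols passed the edgeR test. Relb and Nfkbia lay farther right with both cytokines than with IL-25, and no IL-33 symbol of IL25R+ cells was filled.

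In ST2+ cells IL-33 raised 4 of the 9 genes tested and lowered none. Bcl3, Nfkbia, Nfkbiz and Nfkb2 rose by 2.42- to 4.91-fold, while Nfkb1 and Rela were not called. Over all 7626 genes tested, 8.52% were called higher and 8.03% lower. The median change of the 9 genes was 1.28 on the log2 scale, beside 0.00 over all genes tested. Rel did not pass the filter on low counts, with 6 to 24 counts a library. The T cell markers summed to 108 to 217 CPM with vehicle and 49.2 to 105 CPM with IL-33, without overlap, and their part in these changes was not tested.

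Nfkbia stood at 315, 245, 302 and 281 CPM with vehicle and at 969, 761, 986 and 1005 CPM with IL-33. All treated libraries lay above all vehicle libraries, and the rise was 1.78 ± 0.19 (SE, adjusted p = 0.000453). Bcl3 was at 53.9, 42.8, 38.8 and 64.7 CPM with vehicle and at 318, 117, 236 and 317 CPM with IL-33. The groups were again apart although IL-33 library 2 was much lower than the rest of its group, and the rise was 2.30 ± 0.26 (SE, adjusted p = 0.000566). Nfkb2 was at 164, 158, 135 and 171 CPM with vehicle and at 342, 443, 316 and 293 CPM with IL-33. Here IL-33 library 2 was the highest, and the rise was 1.28 ± 0.25 (SE, adjusted p = 0.00790), or 1.01 (adjusted p = 0.000788) without that library.

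Nfkbiz stood at 19.6, 16.7, 8.4 and 7.3 CPM with vehicle and at 40.7, 14.3, 43.0 and 49.7 CPM with IL-33. The ranges overlapped through IL-33 library 2 alone, which lay below vehicle libraries 1 and 2. The rise was 1.57 ± 0.39 (SE, adjusted p = 0.0192). It was 1.80 (adjusted p = 0.00256) without that library, and the call was lost without IL-33 library 1 or 4 or vehicle library 3 or 4, with adjusted p-values up to 0.0728.

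Of the genes that did not pass, Nfkbie had higher values in every IL-33 library, at 35.0, 40.4, 45.4 and 33.6 CPM against 21.3, 5.6, 16.9 and 26.7 CPM with vehicle. Its difference was 1.11 ± 0.38 (SE, adjusted p = 0.0671), and DESeq2 called it (adjusted p = 0.0271). Tnfaip3 stood at 7.9, 1.9, 1.7 and 6.6 CPM with vehicle and at 15.5, 4.2, 18.4 and 15.04 CPM with IL-33, a difference of 1.36 ± 0.48 (SE, adjusted p = 0.0751). IL-33 library 2 was the sole treated library within its vehicle range, and without it Tnfaip3 was called at 1.57 (adjusted p = 0.0170). Relb was at 76.3, 68.8, 50.6 and 92.1 CPM with vehicle and at 117, 99.4, 75.5 and 112 CPM with IL-33, overlapping, for a difference of 0.55 ± 0.23 (SE, adjusted p = 0.132).

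Nfkb1 ran from 223 to 389 CPM with vehicle and stood at 384, 105, 305 and 360 CPM with IL-33. IL-33 library 2 was far below the rest of its group, and the difference of -0.08 had a 95% interval from -0.71 to 0.55. Rela ran from 126 to 165 CPM with vehicle and from 129 to 178 CPM with IL-33, with a difference of 0.12 (95% interval -0.36 to 0.60). In the authors' deposited table, which gives vehicle over IL-33, 5 of the 10 genes passed an adjusted p below 0.05. They were Nfkb2, Nfkbia, Nfkbie, Nfkbiz and Bcl3, with log2 changes in the authors' deposited table of -1.31, -1.82, -1.15, -1.63 and -2.34.

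The effect of IL-33 was then compared between the sorted populations, as a difference of log2 changes over all 20 libraries. It was larger in ST2+ than in IL25R+ cells for 5 of the 10 genes and smaller for none, where 4.66% of 8964 genes had a higher and 6.85% a lower difference. Bcl3 differed by 2.83 ± 0.41 (SE, adjusted p = 0.000194), and Nfkbia by 1.69 ± 0.21 (SE, adjusted p = 5.36e-05). Nfkbiz differed by 1.61 ± 0.46 (SE, adjusted p = 0.0252), Nfkb2 by 1.52 ± 0.30 (SE, adjusted p = 0.00257) and Nfkbie by 1.497 ± 0.41 (SE, adjusted p = 0.0210). Nfkbie fell short of the threshold within each population, with its level lower in the IL-33 than the vehicle mean of IL25R+ cells (28.4 against 38.8 CPM) and higher in ST2+ cells (38.6 against 17.6 CPM).

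Tnfaip3 had a difference of 1.42 (adjusted p = 0.0820). For Relb the difference was 0.18, with a 95% interval from -0.55 to 0.92, and for Nfkb1 -0.36 (-1.09 to 0.37). Leaving out vehicle library 2 or 3 of the IL25R+ cells left Nfkb2, Nfkbia and Bcl3 as the called genes. Over 20 other settings, which include these, Nfkbiz lost its call in 5 and Nfkbie in 3. The populations were deposited as separate tables with separate vehicle libraries, so sorted population and experiment cannot be told apart.

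**Figure D3:**
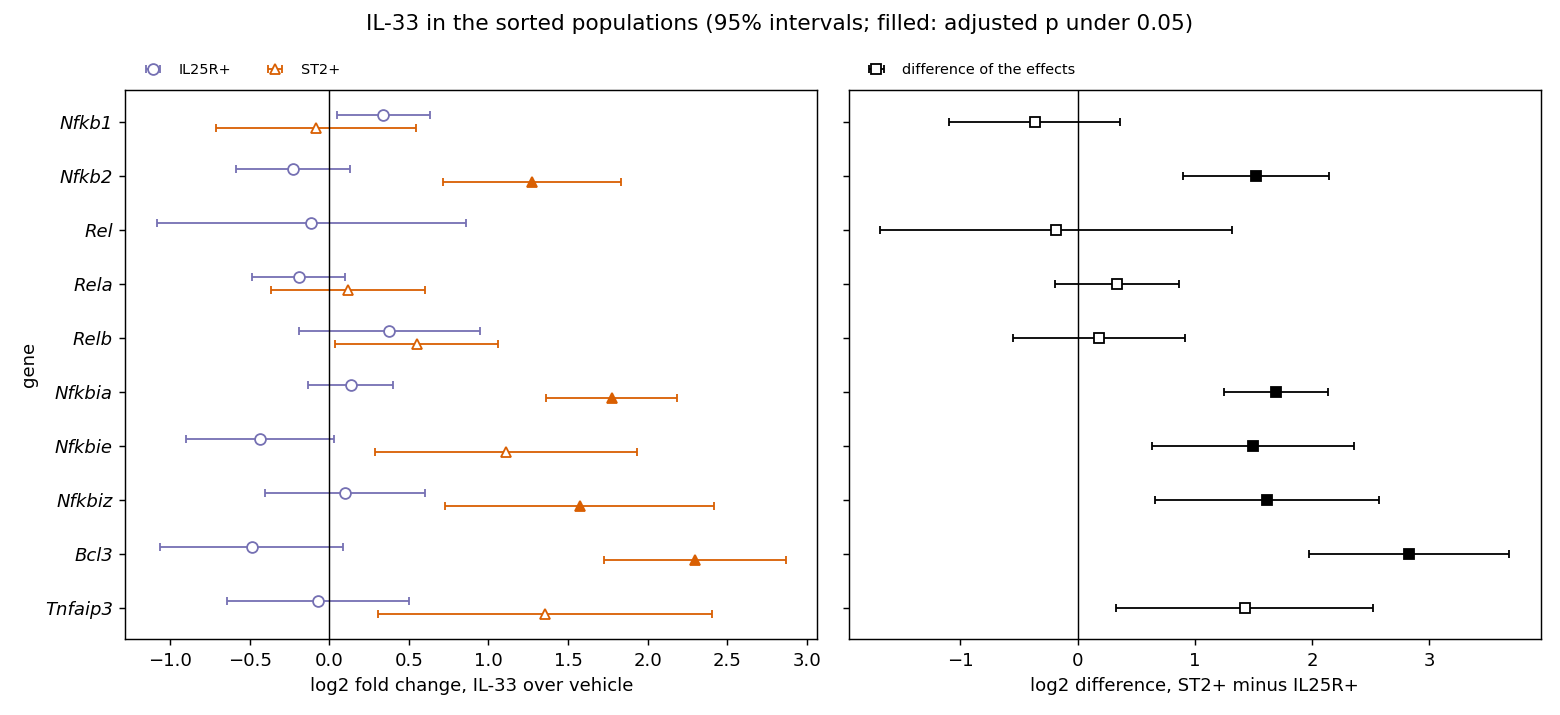
Left, log2 fold change of IL-33 over vehicle (horizontal axis) for each gene (vertical axis) in IL25R+ (circles, n = 3 against 3) and ST2+ cells (triangles, n = 4 against 4); right, the difference of these effects from the fit over all 20 libraries; bars are 95% intervals and filled symbols passed the edgeR test. Bcl3 had a difference of 2.83 and Relb one of 0.18.

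The other genes of the pathway were read from lists by role. For all of these lists the comparison of IL-25 with vehicle runs along the Glycam1 split, so IL-25 and the split cannot be told apart there. The lists were not refitted with the split as a term. Their counts stand beside the shares of all tested genes called higher and lower, which were 9.07% and 5.9% with IL-25, 8.97% and 6.67% with both cytokines and 8.52% and 8.03% in ST2+ cells, and beside all-gene medians of -0.03, -0.03 and 0.00. Among 13 further inhibitors, 12 were tested in IL25R+ cells, and IL-25 raised 3 of them and lowered none, with a list median of 0.27. These were Otulin (0.80), a deubiquitinase of linear chains, Zc3h12a (1.19), the RNase Regnase-1, and Tnip1 (0.61), a partner of A20. With both cytokines Otulin, Tnip1 and Zc3h12a rose by 0.66, 0.87 and 1.93, and the list median was 0.24. In ST2+ cells IL-33 raised 5 of 11 and lowered 1, with a median of 0.44. Zc3h12a rose by 2.44, Nfkbib, which encodes IkB-beta, by 1.29, and Nfkbid, another nuclear IkB protein, by 1.30, with adjusted p = 0.000453, 0.00137 and 0.00869 from edgeR. Nfkbil1 fell by 1.10 (adjusted p = 0.0294).

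Of 13 IKK subunits and upstream kinases, all tested in IL25R+ cells, edgeR called 0 with IL-25, 0 with IL-33 and 1 with both cytokines, and at an unadjusted p below 0.05 these were 3, 2 and 1, beside 29.2%, 12.1% and 29.3% of all genes, so the list's counts were near or below the background. The 1 was Map3k8 (0.85, adjusted p = 0.00131), a kinase that binds the Nfkb1 precursor. In ST2+ cells 0 of 10 were called with IL-33, and 0 at an unadjusted p below 0.05, with a list median of -0.01. Among adaptors and ubiquitin ligases, Irak3, an inhibitory kinase-like protein of the MyD88 pathway, rose by 2.59 with IL-25 and 2.47 with both cytokines in IL25R+ cells and by 3.45 with IL-33 in ST2+ cells (adjusted p = 3.2e-06, 4.9e-06 and 0.0037). In ST2+ cells Irak3 stood at 0 to 5.61 CPM with vehicle and 7.58 to 43.5 CPM with IL-33. It passed the low-count filter there through the IL-33 libraries alone and could hardly have been called lower. Irak3 was the 1 gene of 20 tested that was called with IL-25, a smaller share than the 9.07% over all genes. With both cytokines 2 of 20 rose and 2 fell, and in ST2+ cells 3 of 19 rose (Irak3, Birc3 and Myd88) and 2 fell (Traf3ip3 and Sigirr, an inhibitory receptor of the same family as ST2). These counts lie near the shares over all genes and are no result about the list. Of 3 tested genes of the CARD, BCL10 and MALT1 complex, Malt1 fell by 2.42 and Bcl10 rose by 0.75 in ST2+ cells (adjusted p = 0.00511 and 0.0465). In IL25R+ cells edgeR called 0 of that list with any treatment, with 0, 0 and 2 at an unadjusted p below 0.05 for IL-25, IL-33 and both.

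Of 3 receptor chains tested, edgeR called 1 higher and 1 lower with IL-25 and with both cytokines in IL25R+ cells, 0 with IL-33 (0 at an unadjusted p below 0.05), and 2 lower with IL-33 in ST2+ cells. Il1rl1 rose by 2.86 with IL-25 in IL25R+ cells, from 9.63 ± 2.40 to 63.1 ± 14.7 CPM (SD, n = 3; adjusted p = 3.36e-07 in edgeR), and by 1.59 with both cytokines. Il17ra fell by 0.58 with IL-25 (adjusted p = 0.00100). Il17rb was not called in IL25R+ cells, with differences of -0.24, -0.28 and -0.68 for IL-25, IL-33 and both. In ST2+ cells Il17rb, the chain that binds IL-25, fell by 2.37 with IL-33 (adjusted p = 0.000931), from 85.6 ± 27.9 to 15.9 ± 6.42 CPM (SD, n = 4).

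Of 26 textbook NF-kB targets, 17 were tested in IL25R+ cells. IL-25 raised 9, beside 9.07% of all genes, and lowered none, with a median of 0.55. With IL-33 edgeR called 0, with 3 at an unadjusted p below 0.05, beside 12.1% of all genes, and a median of 0.09. Both cytokines raised 11, beside 8.97% of all genes, and lowered 1, Cflar, with a median of 0.57. Il6, for example, is among the 11, at 1.20 to 4.91 CPM with vehicle and 9.57 to 12.9 CPM with both cytokines. It passed the low-count filter through the both-cytokine libraries alone and could hardly have been called lower. Ccl5, a chemokine, rose by 2.02 with IL-25 and by 2.60 with both cytokines, and Bcl2l1, which encodes the survival protein Bcl-xL, by 1.46 and 1.70. Tnf rose by 1.92 with IL-25. In ST2+ cells IL-33 raised 10 of 16 targets, beside 8.52% of all genes, and lowered none, with a median of 1.20. Il6, among these 10, stood at 0 to 2.24 CPM with vehicle and 9.18 to 13.5 CPM with IL-33. Here it passed the filter through the IL-33 libraries alone and could hardly have been called lower. At an unadjusted p below 0.05 there were 13 targets, beside 32.2% of all genes, with Ltb, Ccl5 and Irf1 lower. Their changes were -1.31, -1.34 and -0.60 (adjusted p = 0.0685, 0.0642 and 0.125 in edgeR), so Ccl5 went the other way than with IL-25 in IL25R+ cells. Gadd45b, a stress-response regulator, rose by 3.87, the growth factor gene Csf2 by 3.74 and Bcl2l1 by 1.81 (adjusted p = 5.94e-05, 0.00125 and 0.00082). Ier3, an early response gene, rose by 2.65 (adjusted p = 0.00325).

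**Figure D4:**
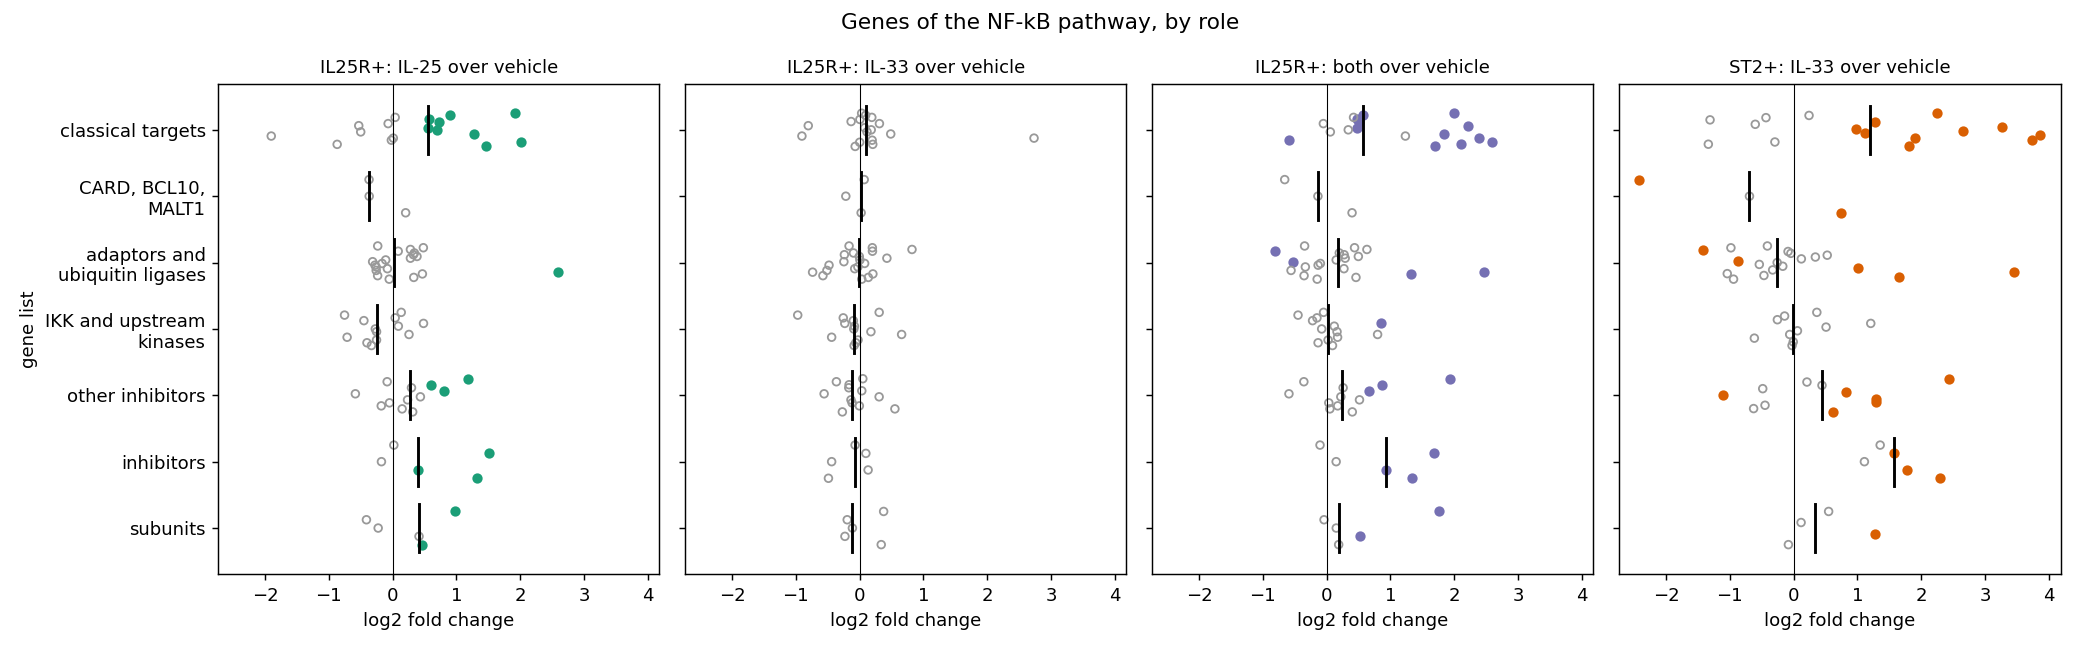
log2 fold change over vehicle (horizontal axis) of every tested gene in lists of the NF-kB pathway (vertical axis), in 4 comparisons; filled points passed the edgeR test, open points did not, and black bars are list medians. The targets' bar lay at 0.55 with IL-25 and 0.09 with IL-33 in IL25R+ cells and at 1.20 with IL-33 in ST2+ cells.

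Across libraries, the genes whose pattern was most like each of the 10 were found by Pearson's correlation of log2(CPM + 1) among genes averaging at least 10 CPM. These values are descriptions: the libraries share treatment groups, and the top of so many genes is high by selection. Only some of the nearest genes are named here. Over the 12 IL25R+ libraries Relb was most like Map2k3 (r = 0.96). Nfkbiz was nearest to Ggt1 (0.97), Vcl (0.96) and Cd69, an activation marker (0.95). Nfkb2 was nearest to Ptpn6, Grifin and Tnip1 (0.92, 0.92 and 0.91). Nfkbia was nearest to Timm13, Ube2a and Bola2 (0.95, 0.93 and 0.93). Over the 8 ST2+ libraries Bcl3 was nearest to Epop, Il13, the main type 2 cytokine of ILC2, and Batf, an activation-induced transcription factor (r = 0.996, 0.995 and 0.994). Both Bcl3 and Il13 were low in IL-33 library 2 relative to the other treated libraries.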

How the data were processed

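Bulk MARS-seq libraries of 12 IL25R+ and 8 ST2+ samples were used. Per the submitters' processing notes, bcl2fastq, cutadapt, STAR 2.5.2b, HTSeq and DESeq2 were used with build mm10. The authors deposited raw counts per gene, whole numbers per library, with DESeq2 results beside them; whether these are reads or unique molecules is not given in the sources used here. The authors also deposited size-factor-scaled counts (signal values), not used here. The authors' deposited log2 fold changes and adjusted p-values were only quoted. Counts were filtered (filterByExpr, minimum count 10), TMM-scaled and tested with edgeR 4.0.16 (quasi-likelihood, Benjamini-Hochberg at 0.05) in R 4.3.3, with all groups of a table sharing 1 estimate of the spread, and with all 20 libraries for the comparison between populations. SE is the log2 change divided by the square root of F. CPM used the total of listed genes. Alternatives used DESeq2 1.42.0, limma 3.58.1 (voom), other filters and scalings, and left-out libraries. The 10 genes and all lists were chosen with earlier results of these data known. Named genes were all 10, up to 4 per list and comparison with the smallest p-values among those that passed, and some of the 3 genes most similar to each. Genes named beyond that rule (such as Cflar, Sigirr, Nfkbil1 and Bcl10) were chosen after their values were seen.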

Additional observations from a re-analysis of the deposited data

Results flagged for a closer look

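In ST2+ cells with IL-33, library 2 had a Nfkbia level of 761 CPM, far enough below the 969 to 1005 CPM of the other 3 to stand out for a group of 4. It still lay above every vehicle library. In the same group Rel reached 9.83 CPM in library 3 against 4.15 to 5.1 CPM in the others, on at most 24 counts a library. These were 2 of 20 groups of 4 libraries looked at, and chance alone gives about 1 in 20.

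The IL-33 effect differed between ST2+ and IL25R+ cells by a test of the difference for Nfkb2 (1.52), Nfkbia (1.69), Nfkbie (1.497), Nfkbiz (1.61) and Bcl3 (2.83), each as a log2 difference. Of these, Nfkbiz lost its call in 5 and Nfkbie in 3 of 20 other settings. Population and experiment cannot be told apart.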

How the results depend on the processing

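Over 638 combinations of another setting with a gene and comparison called in at least 1 setting, 572 kept direction and call, 47 lost and 19 gained the call, and 0 reversed. Leaving out 1 library at a time gave 3 to 4 called genes (5 with all libraries) for IL-25 against vehicle, 0 to 0 for IL-33 against vehicle, 4 to 5 for both cytokines against vehicle, 0 to 1 (2 with all) for both cytokines against IL-25, 5 to 6 for both cytokines against IL-33, 2 to 4 for IL-33 against IL-25, and 0 to 1 for the interaction. The same gave 3 to 5 for IL-33 in ST2+ cells and 3 to 6 (5 with all) for the difference between populations. With the Glycam1 split as a term, IL-25 against vehicle gave 3 and both cytokines against IL-25 gave 0. DESeq2 gave 1 for the latter, where Relb has no adjusted p. Without IL-33 libraries 1 and 2 of IL25R+ cells, IL-33 against vehicle and the interaction gave 1 each, Nfkb1. The cause was not tested.

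In IL25R+ cells the replicate numbers showed no pairing: deviations correlated by -0.13 to 0.13 in 18 same-numbered pairs and by -0.10 to 0.17 in 36 others. In ST2+ cells the 4 same-numbered pairs ran from 0.02 to 0.25 and the 12 others from -0.26 to 0.13. Library totals there were also larger for numbers 1 and 4 than for 2 and 3 in both groups. The labels do not say whether equal numbers mark a shared batch. With the replicate number as a block, the count was 6 for the difference between populations (Tnfaip3 added) and as without the block in the other 8 comparisons. Low counts limit Rel (6 to 24 a library in ST2+ cells) and, in ST2+ vehicle cells, Tnfaip3 and Nfkbie (from 1 and 3 counts).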
